A study of Mus musculus with 18 samples.

Results

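The genes described here are the classical axon guidance ligands and receptors: the ephrins and their Eph receptors, the semaphorins of classes 3 to 7 with the plexins and neuropilins, the Slits with the Robo receptors, and the netrins with Dcc and the Unc5 receptors. Members were chosen by symbol from the protein-coding genes, without use of their values, and 67 of the 27997 genes in the table matched, of which 34 encode ligands and 33 receptors. Of these, 59 passed the filter on low values, which asked for 3 or more of the 18 libraries at 3.32 or higher on the log2 scale (10 in linear terms), as did 15448 genes in all. The other 8 (Sema4f, Sema3g, Epha8, Epha10, Epha1, Robo4, Robo3 and Ntn5) were not tested. Epha6 and Ntn3 also match the rule and were not analysed here.

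RNA was sequenced from adherent cultures of neural stem cells (NSCs) and from astrocytes differentiated from them, in 3 mouse lines with 3 replicates each per fate. The traced tdTomato line (DNGR-1 +/- Tom+/-) and the traced EYFP line (DNGR-1 +/- EYFP+/-) were grown from spinal cords of mice in which Cre is expressed from the Clec9a locus, which encodes DNGR-1, and a fluorophore from Rosa reports past Cre activity. The culture methods describe fluorescent cells sorted from primary neurospheres as the source of such traced cultures. The hippocampal line (DNGR-1+/+) came from Glast-Cre mice with a floxed Huwe1 gene and the Rosa EYFP reporter. All NSCs grew for 4 days on laminin with EGF and bFGF (20 ng/ml each), and astrocytes were collected after 6 days, in medium with BMP4 (20 ng/ml) and without those growth factors. For the age of the donor mice the methods give a range of weeks that holds for the whole study, with no age for these lines in particular. The hippocampus is represented by 1 line and the spinal cord by 2. The 3 replicates of each fate are cultures of the same line from passages 10, 11 and 12, so p-values measure the spread between cultures of a line. Region, Cre driver, genotype and line cannot be told apart in a comparison of traced with hippocampal libraries.

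Axon guidance proteins steer growing axons and migrating cells by attraction or repulsion. Ephrins are held on the cell surface and bind Eph receptor tyrosine kinases on neighbouring cells. Secreted class 3 semaphorins mostly act through neuropilins paired with plexins, whereas membrane-bound semaphorins bind plexins directly. Slits repel through Robo receptors, and netrin-1 attracts through Dcc and repels through Unc5 receptors. Several of these proteins are also known in neural stem cells and astrocytes, where they take part in cell positioning, boundary formation and the response to injury.

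Gfap and Mki67 separated the fates in every line, other fate markers and the regional markers only in part. All 18 libraries correlated best with a library of their own group, and the median absolute difference between replicates was 0.0746 to 0.126 on the log2 scale. Gfap, the astrocyte intermediate filament, lay at 8.96 to 9.44 in NSCs and at 14.69 to 16.66 in astrocytes, and the proliferation marker Mki67 at 12.75 to 13.07 and 6.42 to 7.15. Nes, the intermediate filament of neural stem cells, fell from 13.75 to 14.39 in NSCs of the traced lines to 10.74 to 11.19 in their astrocytes, but stood at 13.76 to 13.99 in hippocampal NSCs and still at 13.43 to 13.80 in hippocampal astrocytes (difference in the change -2.89 ± 0.13, adjusted p = 1.6e-11, limma). Sox2, a stem cell factor, was higher in astrocytes (12.47 to 13.07) than in NSCs (11.22 to 12.12). The posterior gene Hoxc8 lay at 7.47 to 9.41 in traced libraries and at 3.84 to 4.09 in hippocampal ones. Hoxa7, another posterior gene, was at 9.63 to 10.36 in traced and still at 8.03 to 8.28 in hippocampal libraries. The forebrain markers Emx2 (7.79 to 8.37 in traced, 8.59 to 8.95 in hippocampal libraries) and Lhx2 (7.30 to 9.15 and 8.73 to 9.31) were well expressed in the spinal cord lines too. Huwe1 lay between 12.97 and 13.38 in all libraries, the hippocampal ones included, and no loss of its RNA was seen at the level of the whole gene. The neuronal markers Stmn2 and Slc17a7 and the oligodendrocyte markers Mog, Mag and Sox10 stayed below the filter in every library. Because these are bulk cultures, fewer cells expressing a gene and less RNA per cell cannot be told apart.

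These cultures carried a broad guidance repertoire, with 51 members above the filter in all 18 libraries and 41 with a mean of at least 100 on the linear scale. Per kilobase of exon, on the log2 scale, the highest mean levels over all libraries were those of Plxnb2 (10.77), Sema6d (10.47), Ntn1 (9.36), Sema6a (9.19), Plxna1 (8.65), Plxnb3 (8.45), Plxnb1 (8.45) and Sema4b (7.93). All 9 plexins, both neuropilins, all 5 EphB receptors, all 8 ephrins and all 5 netrin receptors passed the filter. Of the EphA receptors 5 of 8 passed and of the Robo receptors 2 of 4, and 1 member each was missing among the netrins and the class 3 and class 4 semaphorins. Among the ephrins Efnb3 was weak throughout, at 4.40 to 4.80 in group means. Values below are the deposited log2 values unless stated otherwise.

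**Figure D1:**
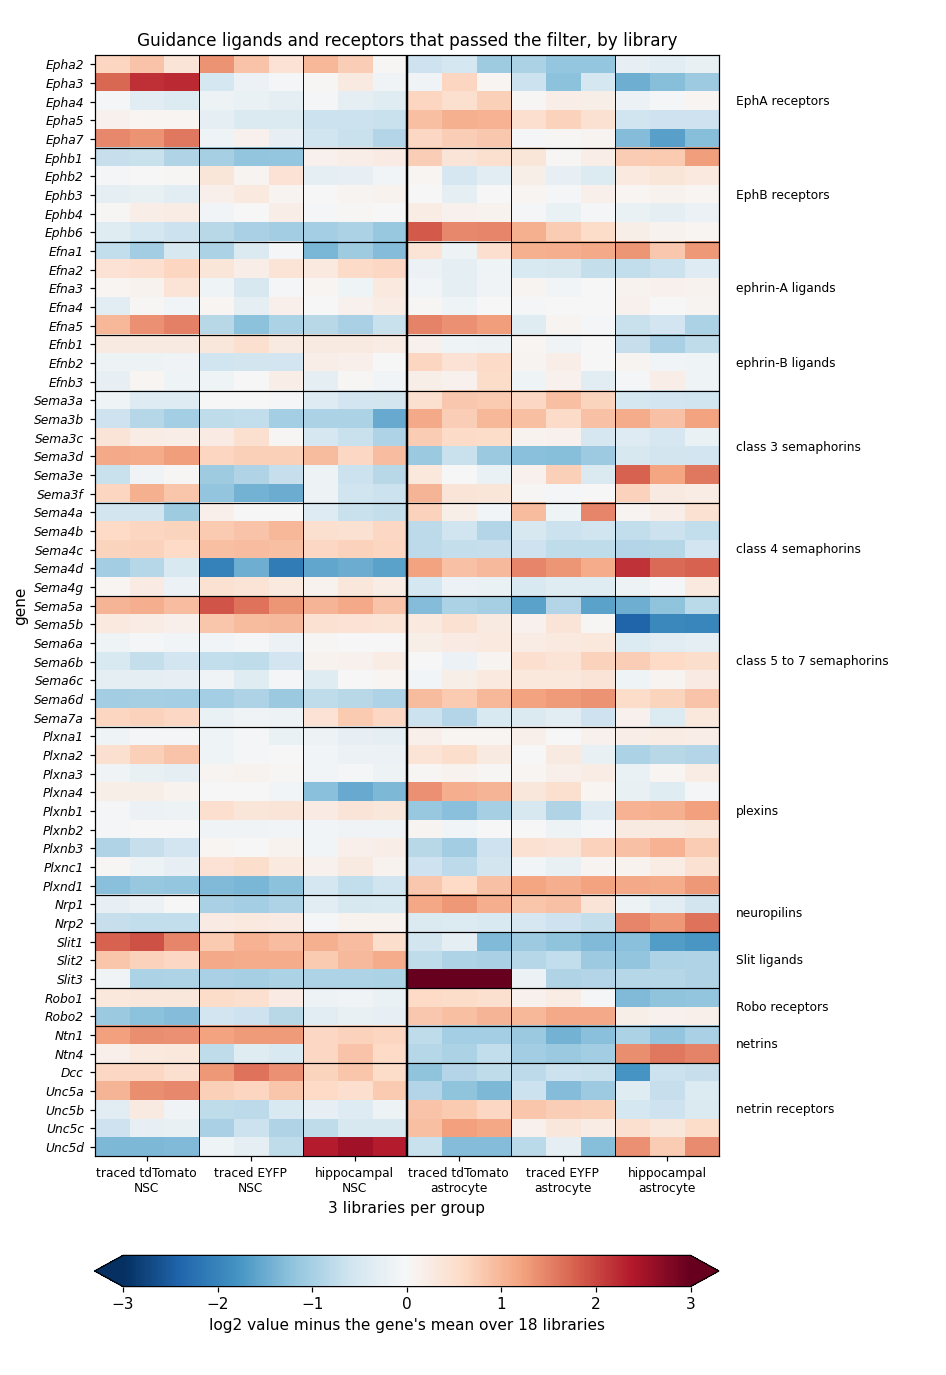
Heat map of the members that passed the filter (rows, by family) in the 18 libraries (columns, by line and fate), coloured by the log2 value relative to the gene's mean over all libraries. Ntn1, Slit1, Slit2, Dcc and Sema5a are lower in every astrocyte library than in every NSC library, while Sema6d, Plxnd1 and Sema4d are higher.

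The share of members that changed with differentiation was close to that of all genes in every line, while changes of at least 1 were a larger share of the members than of all genes. With limma across all genes and an adjusted p under 0.05, 28 of 59 members rose and 21 fell from NSCs to astrocytes in the tdTomato line (83.1%, beside 78.4% of all genes tested), 25 rose and 21 fell in the EYFP line (78.0%, beside 75.2%), and 21 rose and 21 fell in the hippocampal line (71.2%, beside 76.3%). Changes of at least 1 on the log2 scale, that is 2-fold, were seen in 25 members in each line (42.4%), beside 26.8%, 24.5% and 25.6% of all genes in the tdTomato, EYFP and hippocampal line. The median absolute change was 0.859 for the members and 0.546 for all genes in the tdTomato line, 0.773 and 0.491 in the EYFP line, and 0.802 and 0.509 in the hippocampal line. In all 3 lines 13 members rose (22%, beside 28.1% of all genes) and 13 fell (22%, beside 27.8%). By at least 1 in all 3 lines, 6 rose (10.2%, beside 9.06%) and 9 fell (15.3%, beside 6.68%). The 6 were Ephb6, Plxnd1, Sema3b, Sema4d, Sema6d and Unc5c, and the 9 were Dcc, Ntn1, Sema3d, Sema4b, Sema4c, Sema5a, Slit1, Slit2 and Unc5a. With a pseudocount of 10 on the linear scale, Unc5c (0.95 for EYFP, 0.92 for hippocampal cells) and Sema3d (-0.92 in the hippocampal line) fell short of a change of 1. Ligands made up 7 of those 9 and 3 of those 6, beside 31 of the 59 members tested. Summed on the linear scale, the list of neuronal markers stood at 75.4 to 146 in traced and 195 to 253 in hippocampal NSCs and at 171 to 274 and 304 to 403 in the astrocytes, and its part in these changes was not tested. Its genes did not move as one between the lines: Gad1 was at 7.86 to 8.23 in hippocampal and at 4.25 to 5.98 in traced astrocytes, whereas Rbfox3 was at 5.41 to 5.96 and at 6.64 to 7.44. Efna4, which encodes ephrin-A4, passed the test in no line, with group means of 7.07 to 7.32.

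**Figure D2:**
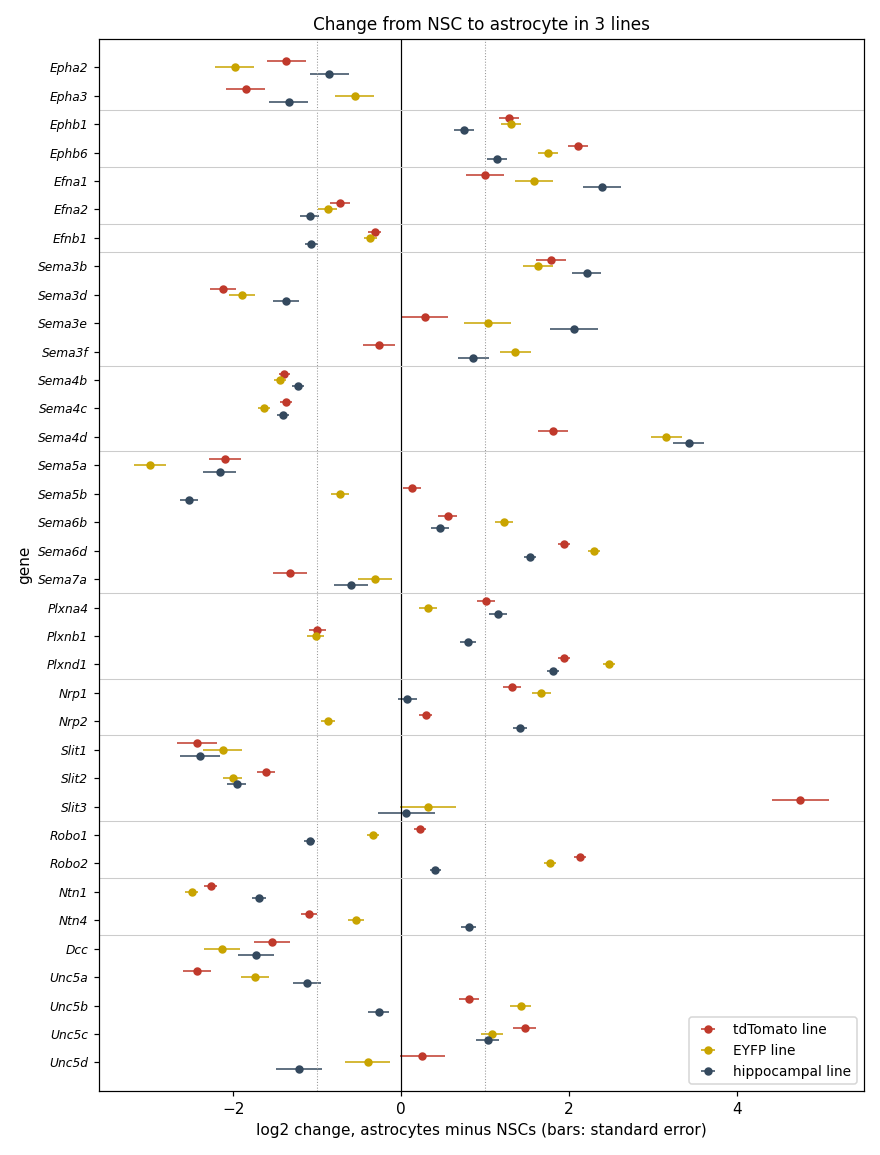
Change from NSC to astrocyte (log2, limma estimate with SE) in the tdTomato, EYFP and hippocampal line for the 36 members that changed by at least 1 in some line. Nrp2, Ntn4 and Plxnb1 rose in the hippocampal line and fell in at least 1 traced line.

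Netrin-1 and its attractive receptor Dcc fell with differentiation in every line. Ntn1, which encodes the secreted guidance cue netrin-1 (chromosome 11, 68209364 to 68400823, GRCm38, minus strand), stood at 13.25, 13.41 and 13.38 in tdTomato NSCs, at 13.21, 13.28 and 13.28 in EYFP NSCs and at 12.64, 12.70 and 12.65 in hippocampal NSCs. In astrocytes it stood at 11.24, 10.99 and 10.99, at 10.91, 10.60 and 10.76 and at 11.06, 10.83 and 11.03. The fates did not overlap, and the fall was 2.27 ± 0.08 (SE, adjusted p = 2.3e-14), 2.5 ± 0.08 (adjusted p = 7e-15) and 1.69 ± 0.08 (adjusted p = 1.2e-12, limma) on the log2 scale. Dcc, the attractive netrin receptor, fell by 1.53, 2.14 and 1.73 in the tdTomato, EYFP and hippocampal line.

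Among the repulsive netrin receptors the members went both ways. Unc5a stood at 7.74, 8.11 and 8.15 in tdTomato NSCs and at 5.82, 5.51 and 5.37 in tdTomato astrocytes. In the EYFP line it stood at 7.43, 7.35 and 7.54 and at 6.07, 5.40 and 5.62, and in the hippocampal line at 7.31, 7.22 and 7.49 and at 6.35, 6.01 and 6.29. All astrocyte values lay below all NSC values, and the fall was 2.43 ± 0.16 (adjusted p = 2.2e-10), 1.74 ± 0.16 (adjusted p = 2.4e-08) and 1.12 ± 0.16 (adjusted p = 6.6e-06, limma) in the same order of lines. Its exons overlap those of Hk3 on the opposite strand. Unc5c went the other way and rose by 1.47, 1.08 and 1.03. Unc5b rose by 0.81 in the tdTomato and by 1.42 in the EYFP line, whereas in the hippocampal line its difference was -0.27 (adjusted p = 0.054).

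Slit1 and Slit2 fell and Robo2 rose in every line. Slit2, which encodes a secreted repellent (chromosome 5, 47983138 to 48307733, plus strand), stood at 8.06, 7.91 and 7.85 in tdTomato NSCs, at 8.35, 8.34 and 8.33 in EYFP NSCs and at 8.0, 8.20 and 8.34 in hippocampal NSCs. In astrocytes it was at 6.45, 6.30 and 6.24, at 6.37, 6.48 and 6.14 and at 6.05, 6.29 and 6.32, below every NSC library, and fell by 1.61, 2.01 and 1.96 (SE 0.11 each, adjusted p = 2.8e-10, 1.4e-11 and 1.7e-11, limma). Its relative Slit1 was weaker, between 4.83 and 6.22 in NSCs, and fell by 2.43, 2.13 and 2.40, or by 1.75, 1.35 and 1.44 with a pseudocount of 10 on the linear scale.

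Robo2, a Slit receptor (chromosome 16, 73891839 to 74411825, minus strand), was at 10.74, 10.61 and 10.55 in tdTomato NSCs, at 11.27, 11.22 and 11.00 in EYFP NSCs and at 11.53, 11.62 and 11.59 in hippocampal NSCs. In the astrocytes of these lines it was at 12.65, 12.75 and 12.87, at 12.85, 12.97 and 12.99 and at 12.01, 11.96 and 11.99. It rose by 2.13 ± 0.07 and 1.77 ± 0.07 in the traced lines (adjusted p = 7.9e-15 and 9.7e-14, limma) and by 0.41 ± 0.07 in the hippocampal line (adjusted p = 3.2e-05). The order of the lines thus turned around: the hippocampal line had the most Robo2 RNA as NSCs and the least as astrocytes. Robo1, the other Robo receptor tested, changed by 0.23 and -0.33 in the tdTomato and EYFP line and fell by 1.09 in the hippocampal line, where it was at 9.09, 9.20 and 9.23 in astrocytes.

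Membrane-bound semaphorins held some of the largest changes in both directions. Sema4d, which encodes a ligand of Plxnb1, stood at 4.94, 5.11 and 5.52 in tdTomato NSCs, at 3.94, 4.52 and 3.89 in EYFP NSCs and at 4.42, 4.49 and 4.38 in hippocampal NSCs. In astrocytes it was at 7.19, 6.86 and 6.94, at 7.44, 7.29 and 7.08 and at 8.15, 7.67 and 7.75. Every astrocyte library was above every NSC library, and the rise was 1.81, 3.16 and 3.43 (SE 0.18 each, adjusted p = 6.1e-08, 3.1e-11 and 8.3e-12, limma). Sema6d, the second most abundant member per kilobase and a ligand of plexin-A1, rose by 1.94, 2.30 and 1.54 from NSC means of 12.85, 12.85 and 13.03. Plxna1 itself rose in every line as well, from means of 11.60 to 11.76 in NSCs to 11.92 to 12.05 in astrocytes. Sema6b, a relative of Sema6d, rose by 0.56, 1.22 and 0.46 in the tdTomato, EYFP and hippocampal line.

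Sema5a, a semaphorin with thrombospondin repeats, moved down. It stood at 7.83, 7.89 and 7.73 in tdTomato NSCs and at 5.50, 5.86 and 5.80 in their astrocytes. The EYFP line gave 8.68, 8.44 and 8.14 and then 5.19, 5.92 and 5.19, and the hippocampal line 7.82, 7.93 and 7.65 and then 5.33, 5.60 and 5.99. The fates did not overlap in any line, and the fall was 2.10, 2.99 and 2.16 (SE 0.20 each, adjusted p = 1.9e-08, 1.6e-10 and 1.3e-08, limma). The class 4 members Sema4b and Sema4c fell by 1.39 and 1.38 in the tdTomato line, by 1.45 and 1.63 in the EYFP line and by 1.23 and 1.41 in the hippocampal line. Of the secreted class 3 semaphorins, Sema3b rose by 1.79, 1.63 and 2.21 and Sema3d fell by 2.13, 1.89 and 1.38 in the same order. Both were weak, with no group mean above 6.07, and with a pseudocount of 10 the differences of Sema3d were -1.40, -1.15 and -0.92.

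Of the plexins, Plxnd1 rose by at least 1 in every line. This receptor of Sema3e (chromosome 6, 115954811 to 115995005, minus strand) stood at 9.15, 9.26 and 9.24 in tdTomato NSCs, at 9.06, 9.03 and 9.16 in EYFP NSCs and at 9.87, 9.66 and 9.79 in hippocampal NSCs. Astrocytes had 11.20, 10.98 and 11.28, 11.58, 11.48 and 11.60, and 11.52, 11.51 and 11.70. All astrocyte libraries lay more than 1 above all NSC libraries, and the rise was 1.94, 2.48 and 1.81 (SE 0.07 each, adjusted p = 7e-14, 2.8e-15 and 1.6e-13, limma). Plxna4, whose exons overlap an antisense gene, rose by 1.01 in the tdTomato and 1.15 in the hippocampal line and by 0.32 in the EYFP line.

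Of the Eph receptors, 2 EphB members (Ephb1 and Ephb6) rose and 2 EphA members (Epha2 and Epha3) fell by at least 1 in some line, while Epha5 (0.92 and 0.92) and Epha4 (0.86 and 0.35) rose in the traced lines by less. Ephb6, an Eph receptor without kinase activity, was at 7.53, 7.37 and 7.27 in tdTomato NSCs and at 9.75, 9.35 and 9.37 in the astrocytes. In the EYFP line it was at 7.07, 6.94 and 6.86 and at 8.97, 8.67 and 8.46, and in the hippocampal line at 6.89, 6.95 and 6.77 and at 8.07, 8.0 and 7.97. No NSC library reached an astrocyte library, and it rose by 2.10, 1.75 and 1.14 (SE 0.12 each, adjusted p = 2.6e-11, 4e-10 and 1.3e-07, limma).

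Ephb1, whose exons overlap an antisense gene, rose by 1.28, 1.31 and 0.74 on the log2 scale. Epha3 fell by 1.85, 0.55 and 1.34 (the last -0.76 with a pseudocount of 10), and Epha2 by 1.37, 1.98 and 0.86. Ephb2 fell by 0.45 in the EYFP line and rose by 0.52 in the hippocampal line, with a difference of -0.25 (adjusted p = 0.10, limma) in the tdTomato line. Among the ephrins, Efna1 rose by 1.00, 1.58 and 2.39, and Efna2 and Efnb1 reached a fall of 1 in the hippocampal line alone (1.09 and 1.07), which is not a test of a difference between lines.

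For the members that moved by at least 1 in the same direction in all 3 lines, the promoters of the 2 with the largest mean rise and the 2 with the largest mean fall among those with a single promoter entry are printed, so that genes that moved together can be compared in sequence. The sequences are the 250 bases before the RefSeq start (GRCm38.p6), 5′ to 3′ on the strand of the gene. Capitals mark every match to GGCGCC, an Smad-type motif, or to CAGAC, the short Smad binding element, or its reverse complement GTCTG, letters chosen because BMP4 signals through Smad proteins. Plxnd1 lies at chr6:115995006-115995255 (minus), Ephb6 at chr6:41605261-41605510 (plus), Sema5a at chr15:32244563-32244812 (plus) and Slit2 at chr5:47982905-47983154 (plus).
Plxnd1: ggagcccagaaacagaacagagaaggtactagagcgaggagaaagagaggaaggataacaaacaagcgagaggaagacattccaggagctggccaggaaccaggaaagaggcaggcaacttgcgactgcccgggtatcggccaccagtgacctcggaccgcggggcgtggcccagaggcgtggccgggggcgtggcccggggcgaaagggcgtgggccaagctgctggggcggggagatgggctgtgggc
Ephb6: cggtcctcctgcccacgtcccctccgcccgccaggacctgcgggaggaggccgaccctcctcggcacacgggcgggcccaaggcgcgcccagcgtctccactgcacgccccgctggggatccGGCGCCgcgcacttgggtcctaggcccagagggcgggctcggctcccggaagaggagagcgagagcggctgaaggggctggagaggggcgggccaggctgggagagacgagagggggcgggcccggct
Sema5a: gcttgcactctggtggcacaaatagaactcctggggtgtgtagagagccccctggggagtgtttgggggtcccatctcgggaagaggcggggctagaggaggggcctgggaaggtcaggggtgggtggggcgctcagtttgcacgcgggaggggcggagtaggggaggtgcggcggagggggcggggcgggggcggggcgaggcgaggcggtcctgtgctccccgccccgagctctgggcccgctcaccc
Slit2: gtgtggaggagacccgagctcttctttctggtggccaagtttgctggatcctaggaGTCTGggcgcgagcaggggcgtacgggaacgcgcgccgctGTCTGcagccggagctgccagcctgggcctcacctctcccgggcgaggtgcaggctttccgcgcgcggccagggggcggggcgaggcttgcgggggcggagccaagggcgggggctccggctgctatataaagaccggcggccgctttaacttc
Ephb6 held 1 GGCGCC and Slit2 held 2 GTCTG, while no such letters were found in the windows of Plxnd1 and Sema5a. Their GC content was 64.8%, 76.8%, 72.0% and 69.6% for Plxnd1, Ephb6, Sema5a and Slit2, against a median of 52.4% over all 32851 promoters. GGCGCC was present in 9.59% and CAGAC, on either strand, in 42.2% of all of them. Among the 73 promoters of members the shares were 20.5% (15) and 49.3% (36), a difference that was not tested. Of the members, 57 of 67 had an entry in this table.

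The change from NSC to astrocyte differed between the traced lines and the hippocampal line for 37 of 59 members (62.7%) in limma's interaction term, beside 46.2% of all genes. It was more positive in the traced lines for 20 (beside 20.3%) and more negative for 17 (beside 25.9%). By at least 1 it was more positive in the traced lines for 7 members (beside 3.85% of all genes) and more negative for 5 (beside 6.31%). Members called in opposite directions in different lines numbered 6 (10.2%, beside 5.64%): Ephb2, Nrp2, Ntn4, Plxnb1, Robo1 and Sema6a.

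The neuropilins, co-receptors for class 3 semaphorins, changed differently in the lines. Nrp1 (chromosome 8, 128358604 to 128503363, plus strand) stood at 9.57, 9.63 and 9.80 in tdTomato NSCs, at 8.84, 8.80 and 8.88 in EYFP NSCs and at 9.49, 9.32 and 9.35 in hippocampal NSCs. In astrocytes it was at 10.97, 11.10 and 10.89, at 10.63, 10.69 and 10.20 and at 9.66, 9.47 and 9.26. It rose by 1.32 and 1.67 in the traced lines, the hippocampal difference was 0.07 ± 0.11 (adjusted p = 0.55), and the changes differed by 1.42 ± 0.14 (adjusted p = 1.8e-07, limma).

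Nrp2 (chromosome 1, 62703285 to 62818695, plus strand) was at 7.28, 7.23 and 7.23 in tdTomato NSCs, at 8.22, 8.26 and 8.21 in EYFP NSCs and at 7.92, 8.07 and 8.09 in hippocampal NSCs. In astrocytes it was at 7.53, 7.56 and 7.52, at 7.48, 7.35 and 7.25 and at 9.45, 9.28 and 9.60. It thus rose in the tdTomato line by 0.29 ± 0.08, fell in the EYFP line by 0.87 ± 0.08 and rose in the hippocampal line by 1.42 ± 0.08. The traced change was lower than the hippocampal one by 1.71 ± 0.10 (adjusted p = 5.1e-10, limma). Hippocampal astrocytes were the group with the most Nrp2 and the least Nrp1 among astrocytes, with no overlap with either traced line.

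**Figure D3:**
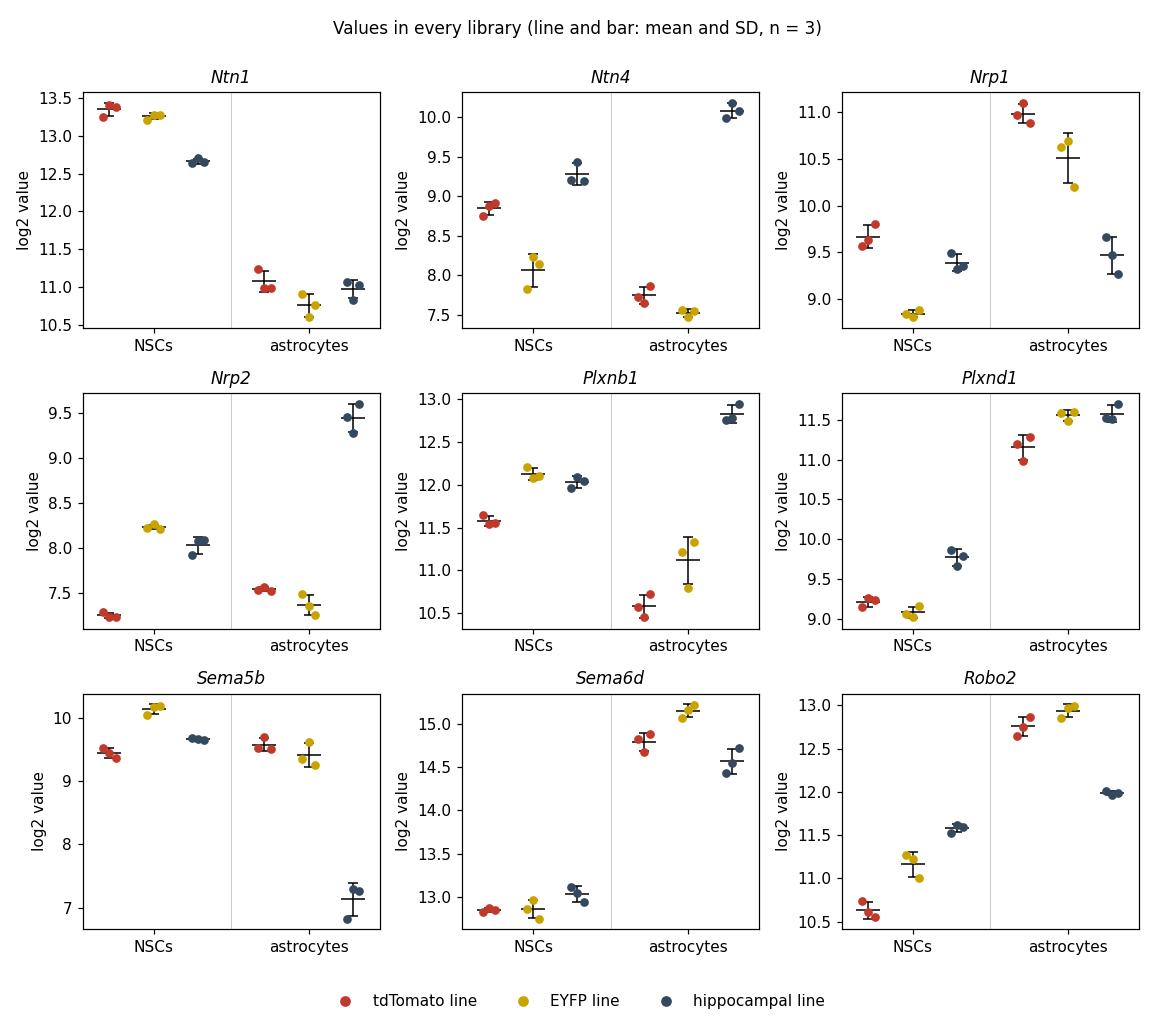
Log2 value in each of the 18 libraries (points), with mean and SD (n = 3), for 9 members by fate and line. Ntn1 fell and Plxnd1 and Sema6d rose in all 3 lines, by amounts that differ between traced and hippocampal lines, while Nrp1, Nrp2, Ntn4, Plxnb1, Sema5b and Robo2 separate hippocampal from traced astrocytes.

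Ntn4, which encodes a netrin of basement membranes (chromosome 10, 93640681 to 93747207, plus strand), stood at 8.75, 8.88 and 8.91 in tdTomato NSCs, at 7.83, 8.23 and 8.14 in EYFP NSCs and at 9.21, 9.44 and 9.19 in hippocampal NSCs. In astrocytes it was at 7.73, 7.65 and 7.86, at 7.56, 7.47 and 7.55 and at 9.99, 10.18 and 10.08. It fell by 1.10 ± 0.09 and 0.54 ± 0.09 in the tdTomato and EYFP line and rose by 0.80 ± 0.09 in the hippocampal line (difference in change -1.62 ± 0.12, adjusted p = 5.5e-09, limma). Both netrins tested therefore fell in the traced lines, and only Ntn1 of the pair fell in the hippocampal line.

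Plxnb1, the Sema4d receptor (chromosome 9, 109095389 to 109119917, plus strand, overlapping an antisense gene), followed the same pattern. It was at 11.65, 11.54 and 11.55 in tdTomato NSCs, at 12.21, 12.08 and 12.10 in EYFP NSCs and at 11.96, 12.09 and 12.05 in hippocampal NSCs, and in astrocytes at 10.57, 10.45 and 10.72, at 11.22, 10.80 and 11.33 and at 12.76, 12.78 and 12.95. It fell by 1.00 and 1.02 in the traced lines and rose by 0.80 in the hippocampal line (difference in change -1.80 ± 0.12, adjusted p = 2.9e-09, limma). Its ligand Sema4d rose in all lines.

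Sema5b, the relative of Sema5a (chromosome 16, 35541145 to 35664732, plus strand), fell most in the hippocampal line. NSCs had 9.53, 9.45 and 9.37 in the tdTomato, 10.05, 10.17 and 10.19 in the EYFP and 9.68, 9.67 and 9.65 in the hippocampal line, and astrocytes 9.53, 9.69 and 9.51, 9.35, 9.62 and 9.26, and 6.83, 7.30 and 7.27. The change was 0.13 ± 0.11 (adjusted p = 0.28) in the tdTomato line, a fall of 0.73 in the EYFP line and a fall of 2.53 in the hippocampal line (difference in change 2.23 ± 0.13, adjusted p = 5.1e-10, limma). The hippocampal astrocytes stood alone, more than 1 below every other library.

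Further members whose change was more positive in the traced lines by at least 1 were Robo2 (1.54), Unc5b (1.38), Unc5d (1.14), Robo1 (1.04) and Slit3 (2.48), and Sema3e (-1.40) and Efna1 (-1.11) were more negative. Sema3e, the ligand of Plxnd1, was weak, with a mean of 4.79 in hippocampal astrocytes and at most 3.42 in other groups. With a pseudocount of 10 on the linear scale the value of Sema3e was -0.88 and that of Slit3 1.08. The value of Slit3 rests on the tdTomato line alone, as described with that line below.

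Fewer members differed by at least 1 between the traced and the hippocampal lines in NSCs than in astrocytes. In NSCs, 26 of 59 members differed between traced and hippocampal lines with limma (44.1%, beside 31.9% of all genes), 15 higher (beside 17%) and 11 lower (beside 14.9%) in the traced lines. By at least 1, 4 did (6.78%, beside 4.61%), 2 of them higher (beside 2.41%) and 2 lower (beside 2.19%). In astrocytes, 42 differed (71.2%, beside 59.7%), 22 of them higher (beside 27.9%) and 20 lower (beside 31.9%). By at least 1, 17 did (28.8%, beside 11.4%), of which 11 were higher (beside 4.67%) and 6 lower (beside 6.69%). The median absolute difference of the members was 0.236 in NSCs and 0.569 in astrocytes, against 0.130 and 0.243 for all genes. The neuronal marker sums given above were higher in the hippocampal line in both fates through Gad1, while the median of the 4 neuronal markers tested was 1.11 higher in traced astrocytes. The ependymal list summed to 2060 to 2620 in traced and 4560 to 5130 in hippocampal astrocytes, and the part of such cells in these differences was not tested. Nor was that of Nes, which was lower by 2.67 in traced than in hippocampal astrocytes.

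**Figure D4:**
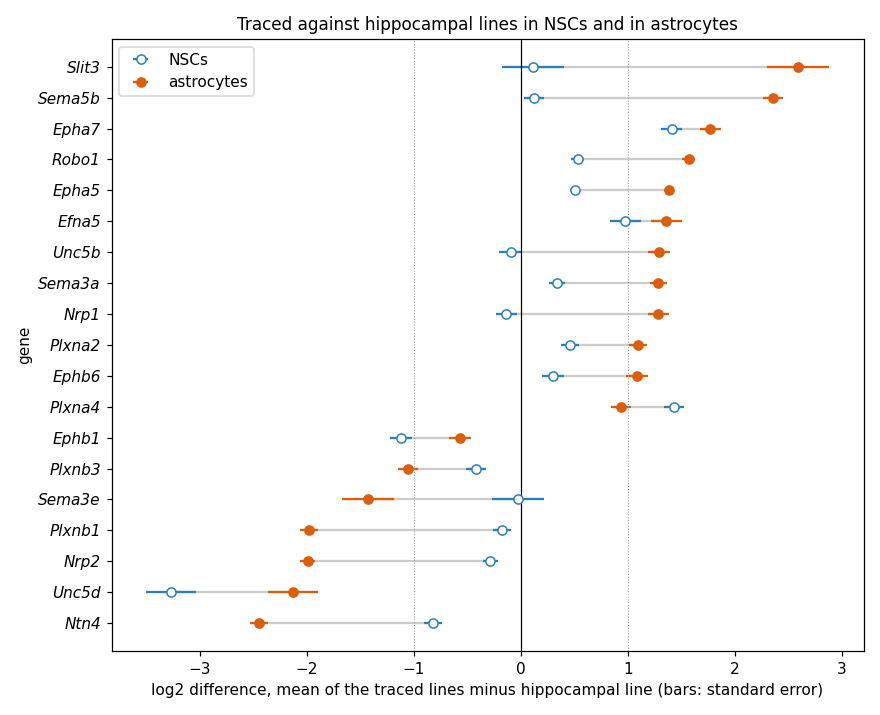
Difference between the mean of the traced lines and the hippocampal line (log2, limma estimate with SE) in NSCs and in astrocytes for the 19 members that differed by at least 1 in either fate. Unc5d, Epha7, Plxna4 and Ephb1 passed this size in NSCs, and 17 of the members did in astrocytes.

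In NSCs, Plxna4, a semaphorin receptor subunit, was higher in the traced lines. It stood at 9.55, 9.55 and 9.48 in tdTomato, at 9.36, 9.38 and 9.30 in EYFP and at 8.13, 7.85 and 8.03 in hippocampal NSCs, a difference of 1.43 ± 0.09 (adjusted p = 1.3e-09, limma). Epha7, a receptor for A-class ephrins (chromosome 4, 28813131 to 28967499, plus strand), stood at 8.58, 8.49 and 8.71, at 7.02, 7.27 and 6.90 and at 6.53, 6.46 and 6.25 in the same order, a difference of 1.41 ± 0.10 (adjusted p = 4.3e-09). Ephb1 was lower in the traced lines, with 7.92, 7.95 and 7.72, then 7.63, 7.44 and 7.45, against 8.75, 8.82 and 8.85 (difference -1.12 ± 0.10, adjusted p = 1.7e-07). In each of these genes both traced lines lay on the same side of the hippocampal line without overlap.

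Unc5d, a netrin receptor named for its size although it was weak (chromosome 8, 28646717 to 29219636, minus strand), was seen above the filter in hippocampal libraries only. It stood at 4.93, 5.10 and 4.93 in hippocampal NSCs and at 3.96, 3.35 and 4.00 in hippocampal astrocytes, a change of -1.21. In traced libraries it lay between 1.23 and 2.46. The fitted difference was -3.27 ± 0.24 in NSCs and -2.13 ± 0.24 in astrocytes. Unc5d passed the filter through the hippocampal libraries alone and so had to differ, and Slit3 passed through tdTomato astrocytes alone. In the same way Sema7a passed through tdTomato and hippocampal NSCs, and Sema3e and Sema4a through astrocyte libraries of the 3 lines. These genes are in the counts, and their differences are given as a description. With a pseudocount of 10 on the linear scale the difference of Unc5d was -1.63 in NSCs and -0.85 in astrocytes.

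In astrocytes, Ntn4 was lower in the traced lines by 2.45 ± 0.08 (adjusted p = 5.6e-14), Nrp2 by 1.99 ± 0.07 (adjusted p = 1.1e-13) and Plxnb1 by 1.98 ± 0.09 (adjusted p = 1.9e-12), and Sema5b was higher by 2.35 ± 0.09 (adjusted p = 4e-13, limma). Their values in each library are given above, and in all of them the traced and the hippocampal astrocytes did not overlap. Of the members tested, 28 were receptors and 31 ligands. Of those lower by at least 1 in traced astrocytes, 4 were receptors and 2 ligands. Receptors made up 7 of the 11 members higher by at least 1 in traced astrocytes: Epha7 (1.77), Robo1 (1.57), Epha5 (1.38), Unc5b (1.29), Nrp1 (1.28), Plxna2 (1.09) and Ephb6 (1.08). The ligands among them were Slit3 (2.59), Sema5b, Efna5 (1.36) and Sema3a (1.28), the last a secreted repellent that signals through Nrp1. With a pseudocount of 10 on the linear scale the difference of Slit3 was 1.10. Lower in the traced astrocytes were also Sema3e by 1.43 (-0.88 with that pseudocount) and Plxnb3, another B-class plexin, by 1.06, in addition to Unc5d. Of the 5 EphA receptors tested, 4 were higher (beside 27.9% of all genes) and 1, Epha2, was lower (beside 31.9%) in traced astrocytes. For Epha3 and Epha4 the EYFP astrocytes overlapped with the hippocampal ones, and Epha3 was below the filter in every hippocampal astrocyte library.

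The traced lines differed from each other as well. In NSCs, 35 of 59 members differed between the tdTomato and the EYFP line (59.3%, beside 31.4% of all genes), 19 higher (beside 16.4%) and 16 lower (beside 14.9%) in the tdTomato line, and 5 by at least 1, all of them higher in the tdTomato line (8.47%, beside 1.66%). In astrocytes, 25 differed (42.4%, beside 14.4%), 18 higher (beside 7.06%) and 7 lower (beside 7.31%), and 4 did by at least 1 (6.78%, beside 2.25%), the tdTomato line being higher in 3 (beside 1.43%) and lower in 1 (beside 0.816%). Without tdTomato astrocyte replicate 2 there were 2 such members. Among NSCs the 5 were Efna5, Epha3, Sema3f, Epha7 and Sema4d. The median absolute difference of the members was 0.414 in NSCs and 0.304 in astrocytes, against 0.154 and 0.105 for all genes.

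Ephrin-A5 and the EphA receptors Epha3 and Epha7 were higher in the tdTomato than in the EYFP line in both fates. Efna5, which encodes this repellent ligand (chromosome 17, 62604184 to 62881317, minus strand), stood at 6.45, 6.83 and 6.97 in tdTomato NSCs, at 4.63, 4.22 and 4.51 in EYFP NSCs and at 4.62, 4.47 and 4.79 in hippocampal NSCs. In astrocytes it was at 6.93, 6.82 and 6.70, at 5.10, 5.53 and 5.41 and at 4.78, 4.88 and 4.51. The EYFP NSCs overlapped with the hippocampal NSCs, and the tdTomato line was above both in each fate. It exceeded the EYFP line by 2.30 ± 0.17 in NSCs (adjusted p = 3e-08) and by 1.47 ± 0.17 in astrocytes (adjusted p = 6.9e-06, limma).

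The receptor Epha7 exceeded the EYFP line by 1.53 ± 0.12 in tdTomato NSCs (adjusted p = 4.8e-08) and by 0.71 in astrocytes, where it was at 7.75, 7.88 and 7.95, at 7.07, 7.17 and 7.23 and, in hippocampal astrocytes, at 5.84, 5.52 and 5.86. Epha3 (chromosome 16, 63543534 to 63864175, minus strand) exceeded it by 2.30 ± 0.23 in NSCs (adjusted p = 1.2e-06) and by 1.01 ± 0.23 in astrocytes (adjusted p = 0.0061, limma), the latter 0.62 with a pseudocount of 10. Its fall with differentiation was larger by 1.30 in the tdTomato than in the EYFP line. For Efna5 the mean of the traced lines therefore rests mainly on the tdTomato line, while Epha7 was above the hippocampal line in both.

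**Figure D5:**
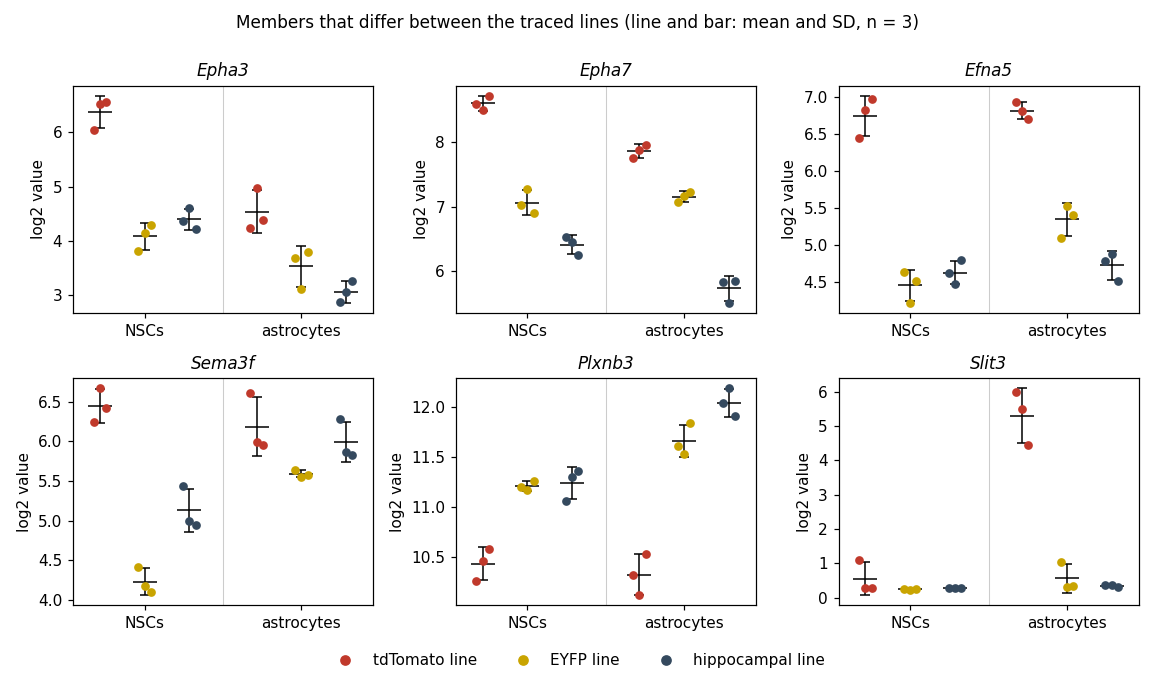
Log2 value in each of the 18 libraries (points), with mean and SD (n = 3), for 6 members that differed between the traced lines. In NSCs, Epha3, Epha7, Efna5 and Sema3f are higher in the tdTomato line than in both other lines, Plxnb3 is lowest in the tdTomato line in both fates, and Slit3 is above 4 in the 3 tdTomato astrocyte libraries and at or below 1.10 in the other 15.

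Sema3f, a secreted ligand of Nrp2, was higher by 2.22 ± 0.19 in tdTomato than in EYFP NSCs (adjusted p = 1.7e-07, limma) and by 0.60 in astrocytes. It rose with differentiation in the EYFP line by 1.36, and the changes of the traced lines differed by 1.62 (adjusted p = 0.00075). Plxnb3 was lower in the tdTomato line. It was at 10.26, 10.46 and 10.58 in tdTomato, at 11.20, 11.17 and 11.26 in EYFP and at 11.06, 11.30 and 11.36 in hippocampal NSCs, and at 10.32, 10.12 and 10.53, at 11.61, 11.53 and 11.84 and at 12.04, 12.19 and 11.91 in astrocytes. The tdTomato line stood below the other lines in each fate, by 1.34 ± 0.11 against the EYFP line in astrocytes (adjusted p = 1e-07, limma) and by 0.78 in NSCs.

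Slit3 stood apart in 1 group. This secreted repellent (chromosome 11, 35121224 to 35708507, plus strand) stood at 6.00, 5.49 and 4.44 in tdTomato astrocytes. It stood at 1.10, 0.27 and 0.29 in tdTomato NSCs, at 1.04, 0.31 and 0.33 in EYFP astrocytes, and at or below 0.37 in the other 9 libraries. It passed the filter through the tdTomato astrocytes alone and so had to differ, and its change in that line (4.75 ± 0.34) and its excess over EYFP astrocytes (4.75 ± 0.34) are given as a description. With a pseudocount of 10 on the linear scale they were 2.13 each. Slit3 is also known from fibroblasts and mural cells, whose marker list summed on the linear scale to 118 to 141 in tdTomato astrocytes, 91.5 to 121 in EYFP astrocytes and 83.0 to 231 in tdTomato NSCs, with Col1a2, Dcn and Pdgfrb below the filter in every library. Single genes of that list were nevertheless highest in tdTomato astrocytes: Lum was at 4.02 to 4.74 there, at 3.65 to 4.02 in EYFP and at 1.52 to 1.58 in hippocampal astrocytes, and Dcn at 2.34 to 2.57, 0.55 to 1.56 and 0.14 to 0.17. The median of its 4 genes tested was 0.57 higher in tdTomato than in EYFP astrocytes, and their part in the Slit3 values was not tested. The microglia list stood at 39.1 to 61.0 in tdTomato and 16.8 to 25.3 in EYFP astrocytes, and at 63.8 to 85.1 and 8.06 to 11.6 in NSCs, with Tmem119 as its only gene above the filter in tdTomato libraries and Aif1 and Csf1r below it in every library.

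The change from NSC to astrocyte differed between the traced lines for 22 members (37.3%, beside 13.3% of all genes), 10 more positive (beside 6.36%) and 12 more negative (beside 6.98%) in the tdTomato line. The count was 14 without tdTomato NSC replicate 2 and 13 without tdTomato NSC replicate 3. By at least 1 there were 6 (10.2%, beside 2.4%). Slit3 (4.44) and Nrp2 (1.16) were more positive in the tdTomato line, and Sema3f (-1.62), Sema4d (-1.35), Epha3 (-1.30) and Sema7a (-1.01) more negative. Sema7a was weak, with group means of 2.10 to 3.43, and no EYFP library reached the filter, so its value is a description. It was -0.42 with a pseudocount of 10, and its call was lost without a filter on low values (adjusted p = 0.062, limma) and without single libraries (adjusted p of 0.051 to 0.073). Comparisons that share libraries, such as these, are not independent of the differences given above.

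Other guidance genes and the effectors downstream of the receptors were followed as separate lists. Of 24 other guidance ligands, receptors and co-receptors tested, 14 rose and 5 fell in the tdTomato line (beside 39.9% and 38.5% of all genes), 13 rose and 8 fell in the EYFP line (beside 38.2% and 37%), and 14 rose and 7 fell in the hippocampal line (beside 39% and 37.3%). Met, the receptor of hepatocyte growth factor, rose most, by 3.54, 4.14 and 6.18, from 3.55 to 4.49 in NSCs to 7.67 to 8.28 in traced and 10.16 to 10.47 in hippocampal astrocytes. The adhesion molecules Cntn2 and L1cam rose by 3.30 and 2.88 in the tdTomato line, by 2.73 and 3.58 in the EYFP line and by 2.41 and 2.26 in the hippocampal line. Dscam, a netrin receptor, fell by 2.48, 1.93 and 2.82.

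Of 53 intracellular effectors tested, 20 rose and 25 fell in the tdTomato line (beside 39.9% and 38.5% of all genes), 21 rose and 26 fell in the EYFP line (beside 38.2% and 37%) and 23 rose and 23 fell in the hippocampal line (beside 39% and 37.3%). Ngef (ephexin, an exchange factor that acts below EphA receptors) rose by 3.53, 3.59 and 1.76, while Mical2 fell by 2.77, 1.82 and 2.21. Mical1, an enzyme that acts below plexins, was higher in the traced lines by 2.87 in NSCs and by 2.38 in astrocytes, and it also differed between the traced lines, by 1.27 and 2.17. The kinase Pak3 fell by 1.35 and 1.22 in the traced lines and rose by 1.24 in the hippocampal line.

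The 8 members below the filter lay between -1.85 and 3.87. Sema4f came nearest, with a mean of 3.43 ± 0.39 (SD, n = 3) in hippocampal astrocytes and at most 2.00 in the other groups. Epha10 had its highest mean there as well, 2.69 ± 0.39 (SD, n = 3). Robo4, known from endothelium, had means of 0.82 to 1.58 and Epha8 had means of -1.84 to -1.75.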

How the data were processed

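RNA was measured in 18 libraries, 3 replicates of each of 6 groups (3 lines, NSCs and astrocytes), and every column was matched to a sample by its title. Per the labels and the study's methods, the authors trimmed reads with Trimmomatic 0.36, aligned them with STAR 2.5.2 to GRCm38 with Ensembl annotation, estimated gene counts with RSEM 1.3.0 and normalized with DESeq2 1.18.1. The deposited table holds log2 values of 27997 genes, 29.4% of them negative, in the form of a regularized log. The transform is not named in the sources used here. Such a transform shrinks weak genes towards their mean, which understates their changes and leaves genes with no reads at no set value. No counts were used here. The labels state at least 25 M reads of 76 bases per library, but the log2 values do not give the reads behind each gene, so the counting error cannot be stated. In addition, the labels and the methods name different library kits. How strand was handled in counting is not given in the sources used here, and exons of 13 members overlap a gene on the opposite strand.

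The 15448 genes that reached 3.32 on the log2 scale (10 in linear terms) in 3 or more libraries were tested on the deposited log2 values with no pseudocount. limma 3.58.1 (R 4.3.3, with a variance trend) fitted the 6 group means over all 18 libraries, which share 1 estimate of the spread (12 residual degrees of freedom). The comparisons were the change from NSC to astrocyte per line, traced (mean of both lines) minus hippocampal and tdTomato minus EYFP within each fate, and the differences between changes. P-values were adjusted by Benjamini-Hochberg over all genes tested, with a threshold of 0.05, and a second rule added an absolute difference of at least 1. Intervals written with ± are limma standard errors unless marked SD. Named are the members that met both rules, with the value in every library for those among the 4 largest differences of a comparison with a mean of at least 100 on the linear scale in the higher group. Library values of Nrp1, Slit3 and Unc5d, and other members below both rules, were added after their values were seen. Of the other lists, up to 3 of the largest differences per comparison were named, and values of those genes in the other comparisons were added after they were seen. Some results are not reported here. The members and lists were chosen with earlier results of these data known. Levels between genes were compared per kilobase of exon (GENCODE, GRCm38), and promoters are from RefSeq. Data were simulated with the same 15448 genes, of which only a small part changed, and with noise drawn independently for each library. There the fit found 95.5% to 100% of changes of 2, 65.7% to 97% of changes of 1 and 47.8% to 76.1% of changes of 0.5 on the log2 scale over the 9 comparisons. False calls numbered 4 to 10 per comparison. In the data most genes tested changed with differentiation, so the shares found there may differ. The alternatives were fits on the compared groups alone, a replicate block (over all libraries and, added later, within each fate), no variance trend, median centring, quantile normalization, no filter, a filter of 100 on the linear scale, a pseudocount of 10 and leaving out each library.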

Additional observations from a re-analysis of the deposited data

Results flagged for a closer look

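The values here are differences between lines in the change from NSC to astrocyte, tested as interaction terms in limma over all 18 libraries, each with an adjusted p under 0.05 and a size of at least 1 on the log2 scale. For Slit3, Unc5d, Sema7a and Sema3e, which passed the filter on low values only through libraries in which they are high, the values are a description and not a tested result. That of Sema7a was -0.42 with a pseudocount of 10 and missed the threshold in 8 refits, with adjusted p of 0.051 to 0.073 in limma. Groups of 3 are too small to look for single libraries that stand apart.

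Between the traced lines and the hippocampal line, the change was more negative in the traced lines for Plxnb1 (-1.80), Nrp2 (-1.71), Ntn4 (-1.62), Sema3e (-1.40) and Efna1 (-1.11). Plxnb1 and Ntn4 fell in both traced lines and rose in the hippocampal line, while Sema3e and Efna1 rose less in the traced lines or, for Sema3e in the tdTomato line, had a change of 0.28 (adjusted p = 0.37). The change was more positive in the traced lines for Robo1 (1.04), Unc5d (1.14), Unc5b (1.38), Nrp1 (1.42), Robo2 (1.54), Sema5b (2.23) and Slit3 (2.48). Slit3 is above the filter in tdTomato astrocytes only, and Unc5d in hippocampal libraries only.

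Between the tdTomato and the EYFP line, the change was more negative in the tdTomato line for Sema3f (-1.62), Sema4d (-1.35), Epha3 (-1.30) and Sema7a (-1.01), and more positive for Nrp2 (1.16) and Slit3 (4.44). Nrp2 is the one member besides Slit3 that differed by this size in both comparisons.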

How the results depend on the processing

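The 123 differences of members that met both rules were refitted, 2023 times in all, and kept their direction. Other differences given above were not refitted. An adjusted p under 0.05 (limma) was kept in 2015 refits. The 8 others were all of Sema7a (change in the tdTomato minus the EYFP line). Their adjusted p was 0.062 without a filter and 0.051 to 0.073 without single libraries (limma). The size of at least 1 was not part of this count. Without single libraries, for example, Plxnb1 (-0.86) and Sema3e (0.74) in the EYFP line fell short of it, as did Epha3 between traced astrocytes (0.78). With a filter of 100 on the linear scale, the members that differed by at least 1 between the traced lines were 3 in place of 5 in NSCs and 2 in place of 4 in astrocytes, and 2 in place of 6 in the difference between their changes, because weak members were no longer tested. That filter left 37 named values untested. With a pseudocount of 10, 19 of the 123 values, all of the weak genes Epha3, Sema3d, Sema3e, Sema7a, Slit1, Slit3 and Unc5d, shrank by over 1.5 times, and 18 of the 123 fell below 1 in size. Examples of the shrinkage were Slit3 in the tdTomato line (4.75 to 2.13), Sema7a (-1.32 to -0.54) and Sema3e in the EYFP line (1.03 to 0.46), and no other alternative moved a named value by that much.

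Leaving out 1 library at a time, the members whose change differed between the traced lines numbered 13 to 23 (22 with all libraries), with 14 without tdTomato NSC replicate 2 and 13 without tdTomato NSC replicate 3. Differences of at least 1 between traced astrocytes numbered 2 to 4, with 2 without tdTomato astrocyte replicate 2. Slit3 could not be tested without any one of the tdTomato astrocyte libraries, since fewer than 3 libraries then pass the filter, and Sema3e could not be tested in the EYFP libraries alone.

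The replicates came from passages 10, 11 and 12, but no source used here ties a replicate number to a passage or batch. The numbers were therefore not taken to pair the libraries, but the values hint at a shared effect within each fate. Same-numbered libraries of the same fate in other lines had a mean correlation of deviations of 0.106 (0.0117 to 0.313, 9 of 18 pairs over 0.1), against -0.0532 for other numbers (1 of 36 pairs over 0.1), and 17 of 18 libraries correlated best on average with their own number. Between the fates of 1 line the mean was -0.0235 (9 pairs). With the replicate number as a block, each count of members moved by at most 2 (28 in place of 26 members differed between traced and hippocampal NSCs) and no call of a named member was lost. With that block fitted within each fate, an alternative chosen after seeing the data, no named call was lost either, and 29 in place of 22 members differed in their change between the traced lines, the widest move. The reads behind each value are not known from the log2 table, which limits statements about the weakest members most.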
